A study of Homo sapiens with 12 samples.

Results

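Transcripts of 9 genes that control the release of paused RNA polymerase II were followed in A673 cells after transcription was blocked. The genes were chosen by name from the deposited counts and are 9 of the 26334 gene symbols listed: the kinases CDK7 and CDK9, the cyclins CCNT1 and CCNT2, the 7SK particle proteins HEXIM1 and LARP7, the bromodomain protein BRD2, and the scaffold proteins AFF1 and AFF4. A673 is an established Ewing sarcoma line. The samples are labelled shA673-1c, were grown under blasticidin and zeocin selection, and carry a CTL tag that the labels do not explain. All were given 5 µM actinomycin D, a DNA-binding drug that stops RNA synthesis. RNA was taken after 0, 1, 2 and 4 h in 3 biological replicates per time point, giving 12 poly(A)-selected libraries. The 0 h samples were the only reference, and time-matched cells without the drug were not analysed here.

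Shortly after initiation, RNA polymerase II pauses near the start of most genes, held by the factors DSIF and NELF. Release into productive elongation depends on P-TEFb, the pair of CDK9 and cyclin T (CCNT1 or CCNT2), which phosphorylates the polymerase, DSIF and NELF. CDK7, the kinase of the initiation factor TFIIH, phosphorylates the polymerase earlier and also activates CDK9. Much of the cell's P-TEFb is kept inactive in a particle built on the 7SK RNA, in which HEXIM1 inhibits the kinase and LARP7 binds and stabilizes the RNA. Active P-TEFb is brought to genes with the help of bromodomain proteins or within the super elongation complex, which AFF1 or AFF4 holds together. Actinomycin D is itself known to free P-TEFb from the 7SK particle, a change in protein assembly that transcript levels do not measure.

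Library totals ranged from 9147018 to 11194705 counts, and levels are given as CPM, a gene's count relative to the scaled library total. Libraries of a time point correlated with r from 0.987 to 0.993 (log2 CPM across genes, 12 pairs). Immediate early transcripts fell as the time labels imply, with slopes of -0.89 log2 per hour for JUN and -0.84 for IER2. Among 10 Ewing sarcoma markers, 9 passed the count filter, NR0B1 and NKX2-2 among them, while CD99 was listed at 0 in every library. Their summed level was 1998 to 2192 CPM at 0 h and 2219 to 2531 CPM at 4 h. CCND1 made up most of this sum, with means of 1678 CPM at 0 h and 1978 CPM at 4 h. By the slope test described below, 3 of the 9 fell, NR0B1 and NKX2-2 among them, 1 rose (CCND1) and 5 were not called. Among 8 markers of leukocytes, epithelium, endothelium and fibroblasts, 7 were below the filter. The 8th, COL1A1, made up nearly all of their summed level of 2664 to 3006 CPM at 0 h and 4470 to 5044 CPM at 4 h, and the part of any other cell type in the results was not tested.

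Of the 9 genes, 8 fell over the time course and 0 rose. A slope in log2 change per hour was fitted for each of the 12032 genes that averaged 10 counts or more per library (edgeR's quasi-likelihood test with Benjamini-Hochberg adjustment, threshold 0.05). All 9 genes passed that filter. Over all tested genes 32.1% fell and 30.7% rose. The median slope was -0.29 for the 9 genes and 0.0093 for all tested genes, whose 10th and 90th percentiles were -0.34 and 0.14. At an unadjusted p below 0.05 the counts among the 9 genes were also 8 and 0, against 3996 and 3932 of all 12032 genes. DESeq2's Wald test gave 8 and 0, against 3829 and 3670 of all genes. LARP7 was the gene that was not called. Slopes were relative to the library scaling (TMM), since no spike-in was used, and in such bulk RNA the loss of cells and the loss of RNA per cell cannot be told apart. Scaling the libraries to GAPDH and ACTB instead, which themselves had slopes of 0.15 and 0.12, shifted the median of all genes by -0.14. All 9 genes then fell, as did 7729 of the 12032 tested genes, while 112 of these rose.

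**Figure D1:**
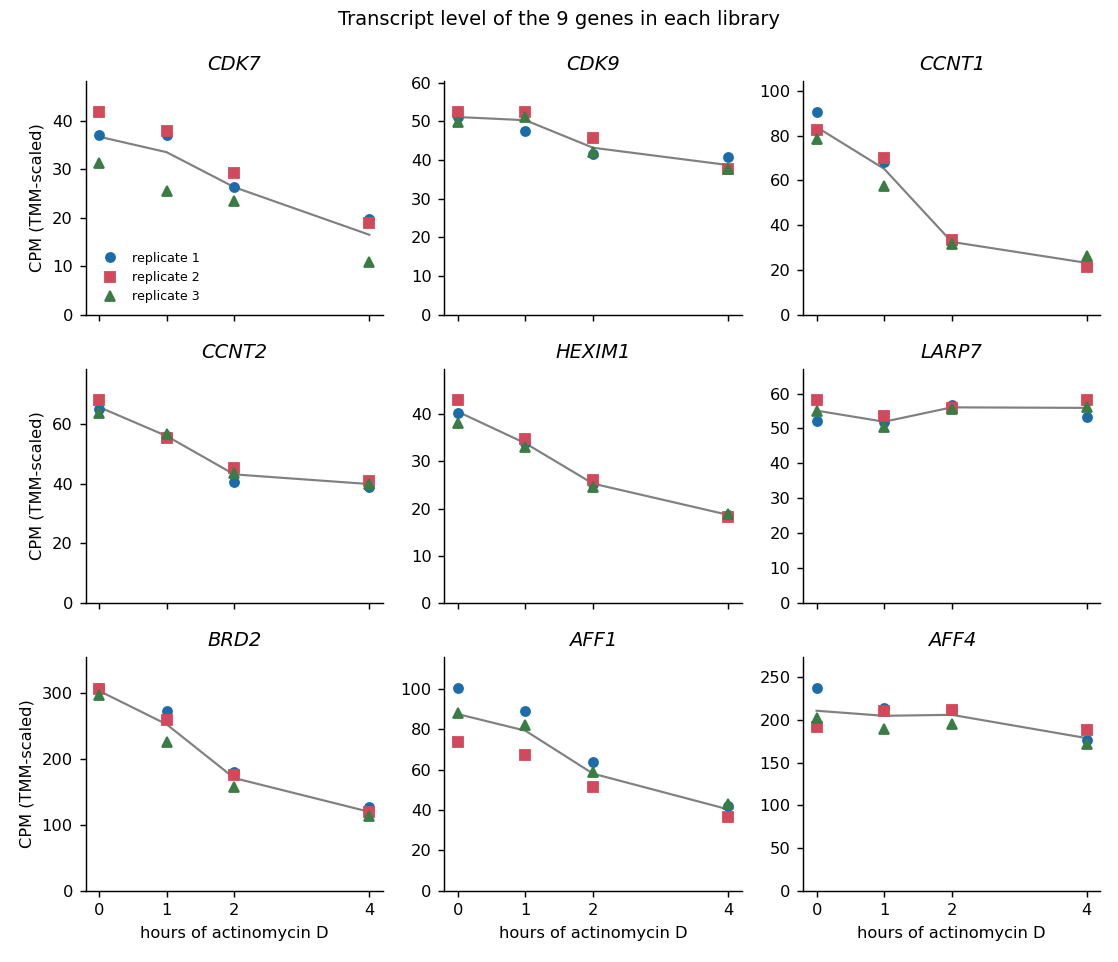
Level of each gene in CPM (TMM-scaled, vertical axis from 0) against hours of actinomycin D, with 1 symbol per replicate (n = 3 per time point) and a line through the means. CCNT1 dropped from a mean of 83.8 to 23.1 CPM and BRD2 from 304 to 119.9 CPM, whereas LARP7 stood at 55.1 CPM at 0 h and 55.9 CPM at 4 h.

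The plot of levels by library shows a steep loss in CCNT1 and BRD2, a shallow one in CDK9 and AFF4, and a level course in LARP7. At 4 h every library was below every 0 h library for 8 of the 9 genes, as was the case for 33.0% of all tested genes. When the 4 time points were fitted as groups, the same 8 genes were called lower at 4 h than at 0 h, against 31.6% of all tested genes. The share of the 0 h level that was left at 4 h in that fit ran from 27.6% for CCNT1 through 39.5% for BRD2, 45.0% for CDK7, 46.0% for HEXIM1 and AFF1, 60.7% for CCNT2 and 75.7% for CDK9 to 84.8% for AFF4.

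Transcripts of the kinases of the pathway were lost at different rates. CDK7 lies on chromosome 5 of GRCh38 from 69234795 to 69277430 (GENCODE version 44, plus strand), and CDK9 on chromosome 9 from 127785679 to 127790792 (plus strand). CDK7 stood at 37.1, 42.0 and 31.3 CPM at 0 h (replicates 1, 2 and 3), 37.1, 38.0 and 25.6 at 1 h, 26.3, 29.3 and 23.4 at 2 h, and 19.7, 19.0 and 10.9 at 4 h. Replicate 3 was the lowest at each time point, and 4 h did not overlap with 2 h. The mean went from 36.8 ± 5.36 to 16.5 ± 4.89 CPM (SD, n = 3), a slope of -0.30 log2 per hour (standard error, SE, 0.047, edgeR adjusted p = 4.23e-05) and a half-life of 3.38 h.

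CDK9 changed far less. Its level was 51.1, 52.6 and 49.7 CPM at 0 h, 47.5, 52.3 and 51.1 at 1 h, 41.6, 45.8 and 42.2 at 2 h, and 40.8, 37.8 and 37.7 at 4 h. The first 2 time points overlapped, and 4 h lay below all others. The slope of -0.11 (SE 0.018, edgeR adjusted p = 6.6e-05) gives a half-life of 9.21 h, which was 6.77 h under library totals and 4.05 h under GAPDH and ACTB. With 0, 1 and 2 h only, it was again -0.11 but not past the threshold (adjusted p = 0.0516). Within single replicates, half-lives were 7.82 to 11.8 h for CDK9 and 2.74 to 4.01 h for CDK7. That of CDK7 was 2.98 h under library totals and 2.30 h under GAPDH and ACTB.

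Of the cyclins, CCNT1 had the lowest slope of the 9 genes. CCNT1 lies on chromosome 12 from 48688458 to 48716998 (minus strand) and CCNT2 on chromosome 2 from 134918235 to 134959342 (plus strand). CCNT1 stood at 90.8, 82.4 and 78.3 CPM at 0 h, 68.1, 70.1 and 57.3 at 1 h, 32.7, 33.4 and 31.5 at 2 h, and 21.7, 21.5 and 26.2 at 4 h. No time point overlapped with the one before it. The slope was -0.49 (SE 0.041, edgeR adjusted p = 4.35e-08), a half-life of 2.02 h, with 1.82 to 2.41 h in single replicates. Under library totals the half-life was 1.88 h, and under GAPDH and ACTB 1.59 h. A half-life assumes a constant rate, and the course of CCNT1 departed from a straight line in a test given below. Among all tested genes 4.86% had a slope this low or lower.

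CCNT2, which forms the same kinase with CDK9, was lost more slowly. It stood at 65.1, 68.2 and 63.8 CPM at 0 h, 56.1, 55.2 and 56.6 at 1 h, 40.5, 45.1 and 43.7 at 2 h, and 38.7, 40.8 and 40.0 at 4 h. The 0, 1 and 2 h libraries separated fully, whereas 2 and 4 h overlapped. Its slope was -0.18 (SE 0.023, edgeR adjusted p = 2.55e-06) and its half-life 5.41 h, with 5.09 to 5.70 h in single replicates and 3.11 h under GAPDH and ACTB. Reads from CCNT2-AS1, which overlaps CCNT2 on the opposite strand, could add to its counts, because the strand setting of the counting was not given in the sources used here.

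Both cyclin transcripts carry long 3′ UTRs with many copies of the AU-rich pentamer ATTTA, a motif known from short-lived transcripts, searched on the transcript strand. In the canonical transcripts of GENCODE version 44, the CCNT1 3′ UTR of 4575 bases held 15 copies and the CCNT2 3′ UTR of 4694 bases held 17. CCNT2 also held the longer AU-rich nonamer TTATTTATT, which contains the pentamer, and CCNT1 did not. The first stretch below shows the densest window of pentamers in CCNT1 (bases 2052 to 2081 of its 3′ UTR) and the second the nonamer of CCNT2 (starting at base 2336), with the motifs in capitals, because the cyclins share a protein role and differ in rate.
CCNT1: gtacATTTAgggcttctATTTATTTAgatt
CCNT2: atgactTTATTTATTaaaggg

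The transcripts of the pair of 7SK particle proteins went separate ways. HEXIM1, a gene of 1 exon, lies on chromosome 17 from 45148475 to 45152099 (plus strand) and LARP7, of 13 exons, on chromosome 4 from 112637077 to 112657696 (plus strand). HEXIM1 stood at 40.3, 43.1 and 38.2 CPM at 0 h, 33.8, 34.7 and 33.0 at 1 h, 25.1, 26.1 and 24.6 at 2 h, and 18.7, 18.3 and 18.9 at 4 h. The replicates lay close together, and each time point was below the one before without overlap. The slope was -0.29 (SE 0.021, edgeR adjusted p = 1.06e-08) and the half-life 3.48 h, with 3.19 to 3.81 h in single replicates. Under library totals the half-life was 3.07 h, and under GAPDH and ACTB 2.36 h.

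LARP7, by contrast, was at 52.1, 58.3 and 54.9 CPM at 0 h, 51.7, 53.5 and 50.5 at 1 h, 56.7, 55.9 and 55.5 at 2 h, and 53.2, 58.2 and 56.3 at 4 h. The 4 h and 0 h libraries overlapped. Its slope was 0.013 (SE 0.017, edgeR adjusted p = 0.503), with a 95% interval from -0.024 to 0.050. All 3 single replicates had a slope above 0, from 0.0079 to 0.019. Its sign depended on the scaling, with -0.026 under library totals (adjusted p = 0.188) and -0.12 under GAPDH and ACTB (adjusted p = 0.000158, a half-life of 8.06 h). Several miRNA genes of the MIR302 cluster lie within LARP7 on the opposite strand.

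The 3′ UTRs of this pair differed in length more than in motif density. HEXIM1 had 7 pentamers in 1829 bases (3.83 per kb), and LARP7 had 1 in 259 bases (3.86 per kb). The stretches show the first pentamer of HEXIM1 (bases 129 to 158) and the only one of LARP7 (bases 217 to 246), so that the falling and the level transcript can be set side by side.
HEXIM1: tttggtttcgtaaATTTAgctatatgtagc
LARP7: tcagtgtcaggtgATTTAgtaaataaatgt

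BRD2, the BET family protein that binds acetylated histones, was the most abundant of the 9 transcripts at 0 h and stood at 39.5% of that level at 4 h. The gene is on chromosome 6 from 32968594 to 32981505 (plus strand), and HLA-DMA overlaps it on the opposite strand. Its level was 309, 306 and 297 CPM at 0 h, 273, 259 and 226 at 1 h, 181, 175 and 157 at 2 h, and 127, 119.6 and 113 at 4 h. Each time point was below the previous one without overlap, and replicate 3 was the lowest at each. The slope of -0.35 (SE 0.022, edgeR adjusted p = 4e-09) gives a half-life of 2.89 h, and single replicates gave 2.84 to 2.97 h, the narrowest range of the 8 genes that fell. Other scalings gave values below that range, 2.59 h under library totals and 2.06 h under GAPDH and ACTB.

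The transcripts of the scaffold proteins of the super elongation complex also diverged. AFF1 lies on chromosome 4 from 86935002 to 87141039 (plus strand) and AFF4 on chromosome 5 from 132875395 to 132963634 (minus strand). AFF1 stood at 101, 74.0 and 88.0 CPM at 0 h, 89.0, 67.1 and 82.0 at 1 h, 63.7, 51.5 and 58.9 at 2 h, and 41.8, 36.4 and 42.9 at 4 h. Replicate 2 was the lowest at each time point, so that 0 and 1 h overlapped, while 2 and 4 h separated from what came before. The slope was -0.29 (SE 0.031, edgeR adjusted p = 5.84e-07) and the half-life 3.42 h, with 3.03 to 3.76 h in single replicates. Library totals gave a half-life of 3.02 h, and GAPDH and ACTB 2.33 h.

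AFF4 was at 238, 192 and 202 CPM at 0 h, 214, 210.4 and 189.6 at 1 h, 211, 212 and 195 at 2 h, and 176, 188 and 172 at 4 h. The first 3 time points overlapped, and only 4 h lay below them. The slope of -0.058 (SE 0.019, edgeR adjusted p = 0.0133) corresponds to 17.1 h, beyond the 4 h observed, and single replicates gave 9.71 to 62.9 h. It was 10.3 h under library totals (adjusted p = 0.000216) and 5.12 h under GAPDH and ACTB (adjusted p = 1.37e-07). Under the TMM scaling, in fits that did not pair samples by replicate number, the call rested on few libraries. Without replicate 1 the slope was -0.035 (adjusted p = 0.176) and 4 h against 0 h was -0.13 log2 (adjusted p = 0.203). The slope was -0.045 without the 0 h library of replicate 1 (adjusted p = 0.051), -0.048 without the 4 h library of replicate 3 (adjusted p = 0.0604) and -0.0057 with 0, 1 and 2 h only (adjusted p = 0.933). With all libraries and the replicate number as a block, the slope was -0.057 (edgeR adjusted p = 0.00239). In that paired fit 4 h against 0 h was -0.23 log2 (edgeR adjusted p = 6.46e-05).

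AFF1 and AFF4 have 3′ UTRs of 5338 and 5664 bases, the longest of the 9 genes, with 14 and 20 pentamers. AFF1 held 1 nonamer and AFF4 held 2. They are printed with 6 bases on each side, at base 4756 of the AFF1 3′ UTR and at bases 300 and 3611 of that of AFF4.
AFF1: ttttttTTATTTATTaccatt
AFF4: gaaattTTATTTATTttaatt
AFF4: tccacaTTATTTATTaaattg

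Genes of like pentamer density had different slopes. All 9 held at least 1 ATTTA, as did 75.7% of the 10720 tested genes with an annotated 3′ UTR of at least 50 bases. The nonamer was found in 3 of the 9 genes and in 10.2% of those genes, and long 3′ UTRs hold more of both motifs. Among genes with 3′ UTRs of like length, 19.9% held the nonamer in the case of CCNT2, 22.1% in that of AFF1 and 23.0% in that of AFF4. As many pentamers as in CCNT1 were present in 23.4% of genes of like 3′ UTR length, and as many as in HEXIM1 in 19.9%. This share was 15.8% for CCNT2, 18.4% for AFF4, 38.1% for LARP7, 40.6% for CDK7, 40.7% for AFF1, 41.5% for BRD2 and 60.0% for CDK9. LARP7 with 3.86 per kb and HEXIM1 with 3.83 per kb had the highest densities, and CDK9 with 1.60 per kb the lowest, against a median of 1.80 over all these genes. The LARP7 density rests on 1 pentamer in 259 bases. A match is a string of letters and does not show that a protein binds there. Whether the motifs bear on the slopes was not tested.

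**Figure D2:**
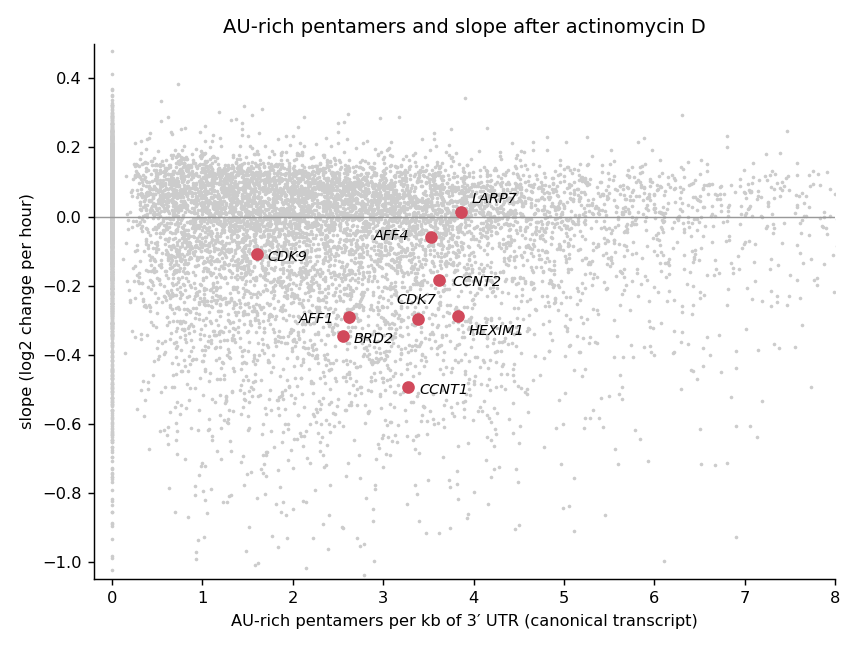
Slope in log2 change per hour (vertical axis) against ATTTA pentamers per kb of 3′ UTR (horizontal axis) for 10482 tested genes (gray) and the 9 genes (red, named), with 238 genes outside the axes. LARP7, AFF4, CCNT2 and HEXIM1 have 3.53 to 3.86 pentamers per kb and slopes from 0.013 to -0.29.

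The calls differed in number between the intervals. Between 0 and 1 h, 0 of the 9 genes were called lower by edgeR's quasi-likelihood test (2.24% of all tested genes were), 4 had an unadjusted p below 0.05 and 0 were higher. The share of all tested genes at that unadjusted level was not counted. DESeq2's Wald test called 1, CCNT1, and its share over all tested genes was not counted either. The 4 genes were CCNT1 (-0.36 log2, adjusted p = 0.050, edgeR, not below the threshold), BRD2 (-0.26), HEXIM1 (-0.26) and CCNT2 (-0.23). When the replicate number was added as a block, these 4 were called, with adjusted p-values from 2.69e-06 for BRD2 to 0.00479 for HEXIM1, and the share over all tested genes was 10.5%.

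Between 1 and 2 h, 6 of the 9 genes were called lower, against 12.5% of all tested genes. CCNT1 lost 1.00 log2 in this hour (SE 0.096), leaving 49.9% of its 1 h level. The other falls were 0.56 for BRD2, 0.45 for AFF1, 0.42 for HEXIM1, 0.38 for CCNT2 and 0.22 for CDK9 on the log2 scale. CDK9 was not past the threshold when any 1 replicate was left out (adjusted p from 0.135 to 0.185), nor was AFF1 without replicate 1 (0.0988) or replicate 3 (0.119). CDK7 fell by 0.35 (SE 0.19), which was called only with the block (adjusted p = 0.00148) or without replicate 3 (adjusted p = 0.0131).

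Between 2 and 4 h, 5 of the 9 genes were called lower, against 18.3% of all tested genes. CDK7 changed by -0.67 log2, AFF1 by -0.53, BRD2 by -0.51, CCNT1 by -0.49 and HEXIM1 by -0.44 over these 2 h. CCNT2 changed by -0.11 (SE 0.065) and was not called, but it was called under library totals (-0.20, adjusted p = 0.0397) and under GAPDH and ACTB (-0.42, adjusted p = 0.0039). The calls of CDK7 and CCNT1 were lost without replicate 1 (adjusted p = 0.0895 and 0.0513) or replicate 2 (0.127 and 0.0816). The changes were then -0.81 and -0.71 for CDK7 and -0.45 and -0.42 for CCNT1. With the replicate block and all libraries both were called, CDK7 with -0.68 (edgeR adjusted p = 9.25e-07) and CCNT1 with -0.49 (edgeR adjusted p = 3.38e-05). With the block, AFF4 (-0.20, adjusted p = 0.000764) and CDK9 (-0.16, adjusted p = 0.0404) were called as well.

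**Figure D3:**
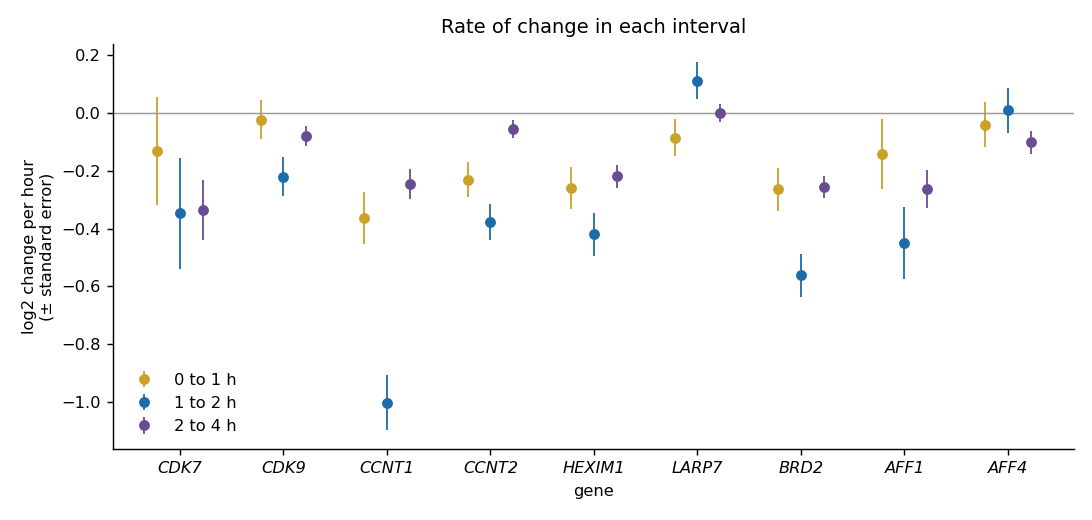
Log2 change per hour (vertical axis, point ± standard error from edgeR) in the intervals 0 to 1 h, 1 to 2 h and 2 to 4 h for each of the 9 genes. From 1 to 2 h CCNT1 fell by 1.00 per hour, against changes of -0.36 and -0.25 per hour in the first and last interval, whereas the standard errors of CDK7 overlap in all 3.

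In the plot of rates by interval the lowest point is that of 1 to 2 h in 7 of the 9 genes, all but LARP7 and AFF4. For CDK7 it is hardly apart, with -0.35 (SE 0.19) from 1 to 2 h and -0.34 (SE 0.10) from 2 to 4 h. How many of all tested genes share this order was not counted. A constant rate of loss gives a straight line on the log2 scale. Departure from it passed the threshold in 1 of the 9 genes, CCNT1 (adjusted p = 0.0168, edgeR), against 2.70% of all tested genes. Of the 9, 3 had an unadjusted p below 0.05, a share that was not counted over all tested genes. The CCNT1 call was lost without replicate 1 (adjusted p = 0.304) or replicate 2 (0.396). With the replicate block, 4 of the 9 genes departed, against 17.2% of all tested genes: CCNT1 (adjusted p = 1.7e-05), BRD2 (0.000334), CCNT2 (0.00314) and AFF1 (0.044).

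Ratios of counts within a library do not depend on the scaling, so that partners can be compared directly. In 6 pairs, the slope of the log2 ratio was tested by a two-sided exact permutation test over the 12 libraries (369600 arrangements, Benjamini-Hochberg over the 6 pairs). The pairs were set by role except BRD2 with HEXIM1, and the genes were chosen with earlier results of these data known. All 6 had an adjusted p below 0.05, and in each pair the slope had the same sign in 3 of 3 replicates. Samples of a replicate number resemble each other, and the test that kept replicates as blocks called the same 6 pairs.

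The cyclin makeup of the transcripts turned over. The ratio of CCNT1 to CCNT2 counts was 1.39, 1.21 and 1.23 at 0 h and 0.560, 0.528 and 0.656 at 4 h, without overlap. Its slope was -0.30 log2 per hour (SE 0.034, exact permutation, adjusted p = 2.71e-05). Because the transcripts are of similar length, 6788 and 6920 bases, CCNT1 went from above to below CCNT2 per length as well, from 12.3 ± 0.934 against 9.49 ± 0.328 CPM per kb at 0 h to 3.41 against 5.76 CPM per kb at 4 h.

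For the 7SK particle proteins, the ratio of HEXIM1 to LARP7 counts went from a mean of 0.737 ± 0.0390 at 0 h to 0.335 ± 0.0189 at 4 h (SD, n = 3). Its slope was -0.30 (SE 0.021, exact permutation, adjusted p = 8.12e-06). The ratio of the inhibitor HEXIM1 to the kinase CDK9 went from 0.792 ± 0.0263 to 0.483 ± 0.0219, a slope of -0.18 (SE 0.012, exact permutation, adjusted p = 8.12e-06). These pairs reached the smallest p that the test can give, 2.71e-06 before adjustment.

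The ratio of AFF1 to AFF4 counts went from 0.415 ± 0.0259 to 0.227 ± 0.0294 (slope -0.23, SE 0.036, exact permutation, adjusted p = 0.00017). That of CDK9 to CDK7 rose from 1.41 ± 0.171 to 2.50 ± 0.823 (slope 0.20, SE 0.054, exact permutation, adjusted p = 0.00217), the widest spread of the 6. BRD2 and HEXIM1 kept nearly in step, with 7.50 ± 0.362 BRD2 counts per HEXIM1 count at 0 h and 6.42 ± 0.422 at 4 h. That slope was -0.061 (SE 0.018, exact permutation, adjusted p = 0.00618), and without replicate 3 it was -0.047 and not past the threshold (adjusted p = 0.0528).

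**Figure D4:**
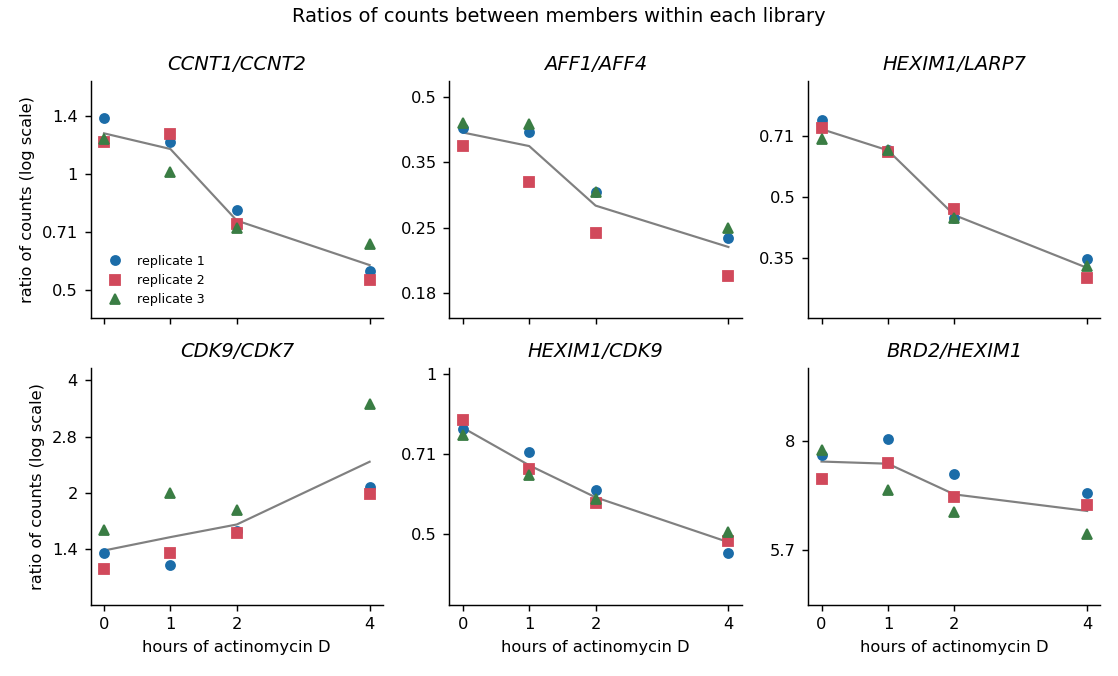
Ratio of counts within each library (log scale) for 6 pairs of genes against hours of actinomycin D, 1 symbol per replicate (n = 3 per time point), with lines through the geometric means. CCNT1/CCNT2 crosses from 1.39, 1.21 and 1.23 to values below 1, and BRD2/HEXIM1 changes least.

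The order of the genes by level per transcript length also changed. At 0 h BRD2 led with 61.3 ± 1.25 CPM per kb, and its libraries did not overlap with those of the next gene. LARP7 (26.1 ± 1.46), CDK7 (25.8 ± 3.76), AFF4 (22.1 ± 2.52) and CDK9 (20.6 ± 0.571) followed, each overlapping with its neighbour. CCNT1 (12.3 ± 0.934) and HEXIM1 (11.2 ± 0.682) overlapped with each other, as did CCNT2 (9.49 ± 0.328) and AFF1 (9.46 ± 1.44). At 4 h LARP7 (26.5 CPM per kb) and BRD2 (24.2) were the highest and CCNT1 (3.41) the lowest. The values use the canonical transcript, and another isoform in these cells would change them.

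Other genes of pause release were taken from lists drawn up by role, 43 genes in all, of which 40 were tested. Of these, 16 fell, 14 rose and 10 were not called, beside 32.1% falling and 30.7% rising over all tested genes. The calls of rising genes depended on the scaling. Under library totals 7 were called rising, and under GAPDH and ACTB 0 rose and 34 fell. Over all 12032 tested genes, 2242 rose under library totals, and 112 rose and 7729 fell under GAPDH and ACTB.

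Among partners of P-TEFb and related kinases, 6 of the 6 genes reported here fell and 0 rose. That 0, and those of the lists of the super elongation complex and TFIIH, stayed 0 at an unadjusted p below 0.05 (edgeR). HEXIM2, the paralog of HEXIM1, fell at -0.47 log2 per hour (SE 0.080, edgeR adjusted p = 8.3e-05) at a mean of only 16.8 counts. MEPCE, the enzyme that caps the 7SK RNA, had a slope of -0.41. The elongation kinases CDK13 (-0.44) and CDK12 (-0.25) fell with their cyclin CCNK (-0.12). BRD3, of the same protein family as BRD2, fell as well (-0.11).

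The list of the super elongation complex also held ICE1 and ICE2, which belong to the related little elongation complex. Of its 8 tested genes, 5 fell and 0 rose. AFF2, AFF3 and ELL3 were below the count filter. The elongation factor ELL had a slope of -0.43, ICE1 of -0.33 and the reader protein MLLT3 of -0.25, while ELL2 (-0.18) and EAF1 (-0.15) fell less steeply. MLLT1 (-0.029, adjusted p = 0.0879), EAF2 (-0.090, adjusted p = 0.162) and ICE2 (0.0050, adjusted p = 0.857) were not called (edgeR).

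In TFIIH and in the pausing factors most calls were of rising genes. Of TFIIH, 0 of 9 genes fell, 4 rose and 5 were not called. CCNH and MNAT1, which form the kinase module with CDK7, had slopes of 0.013 (adjusted p = 0.565) and -0.044 (adjusted p = 0.0932) by edgeR, against -0.30 for CDK7 itself. MNAT1 was called lower at 4 h against 0 h (adjusted p = 0.0449, edgeR), and its slope was called under library totals (-0.082, adjusted p = 0.00469) and under GAPDH and ACTB (-0.18, adjusted p = 2.96e-05). The risers were ERCC2 (0.13), a helicase subunit that bridges to that module, GTF2H3 (0.10), GTF2H5 (0.075) and GTF2H4 (0.056), none of which rose when scaled to GAPDH and ACTB. Of these, ERCC2 and GTF2H3 were still called rising under library totals. GTF2H5 was not called without replicate 2 (0.062, adjusted p = 0.0642) or replicate 3 (0.070, adjusted p = 0.107). GTF2H2, which has near-identical copies in the genome, is uncertain.

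Of the 6 genes of DSIF and NELF, 5 rose and 1 fell. NELFA fell with a slope of -0.18, while NELFE (0.097), NELFCD (0.093), NELFB (0.091), SUPT5H (0.079) and SUPT4H1 (0.070) rose, though none did when scaled to GAPDH and ACTB, and SUPT5H and SUPT4H1 did not under library totals either. Among 11 genes of the PAF complex and other elongation factors, 4 fell, 5 rose and 2 were not called. LEO1 (-0.32) and RTF1 (-0.13), both PAF-associated, fell, as did PAF1 (-0.054) and CDC73 (-0.044), whereas the histone chaperone subunit SSRP1 (0.090), TCEA1 (0.083) and WDR61 (0.082) rose, though none did when scaled to GAPDH and ACTB and WDR61 did not under library totals either (0.043, adjusted p = 0.103). The slope of PAF1 was not past the threshold without replicate 2 (-0.036, adjusted p = 0.182). Under the scaling to GAPDH and ACTB, ERCC2, GTF2H3, GTF2H5, NELFE, NELFCD, NELFB, SSRP1, TCEA1 and WDR61 all changed sign.

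The genes whose courses lay nearest to the 3 lowest slopes were found over the mean log2 changes at 1, 2 and 4 h against 0 h, among 8855 other genes that averaged 100 counts or more. For CCNT1 these were KMT2E (distance 0.0981), ASB7 (0.11) and FOSL2 (0.112). KMT2E changed by -0.35, -1.33 and -1.94, and CCNT1 by -0.37, -1.36 and -1.85 on the same scale. For BRD2 they were ATOH8 (0.0614), NAV3 (0.0645) and C3orf58 (0.0703), and for CDK7 they were RAB9A (0.0144), MIEF1 (0.021) and TERF2 (0.0236). With 3 time points, such closeness describes the shape of the curves and no more.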

How the data were processed

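RNA-Seq was analysed from 12 libraries of A673 cells (3 replicates each at 0, 1, 2 and 4 h of 5 µM actinomycin D), grouped and numbered by the sample labels. What the authors deposited were raw, whole-number counts by gene symbol, with no coordinates. Labels give a stranded poly(A) kit, and the submitters' processing notes name FastQC, STAR and hg19 without roles or versions. How reads were assigned to genes, and with which strand setting, was not given in the sources used here. The labels call the replicates biological and say no more, so p-values measure the spread between these samples.

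Counts were tested with edgeR 4.0.16 in R 4.3.3 (glmQLFit and glmQLFTest, TMM factors, genes averaging 10 counts or more), with time in hours as a number or as 4 groups, without a block. P-values were adjusted over the 12032 tested genes by the Benjamini-Hochberg method. Standard errors come from the F statistic and the 95% interval from a t quantile. Half-life was -1 divided by the slope, for genes that fell. CPM are TMM-scaled, and levels per kb divide them by the length of the canonical transcript. Ratios used counts plus 0.5. The common biological coefficient of variation was 0.0905. All 12 pairs of libraries within a time point differed beyond sampling noise (chi-square per degree of freedom 3.23 to 8.73), so none was counted as a repeat. Samples sharing a replicate number deviated together from their time point means (correlations 0.300 to 0.612 over 18 pairs, against -0.403 to 0.0842 over 36 pairs with different numbers), so the numbers pair the samples.

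On simulated data, where 200 genes were changed, the slope test recovered 73.5% of them among 11984 genes with 6 false calls. The contrast of 2 h against 1 h recovered 69.5% and the test for departure from a line 46.5%, both among 11975 genes. The simulated libraries were drawn independently, and the changes went up or down at random. In the real data samples of a replicate number resemble each other, and 32.1% of genes fell and 30.7% rose. These rates therefore need not hold for the real data.

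The 9 genes and the lists were chosen with earlier results of these data known. Besides the 9 genes, the text names in each list up to 3 genes with the lowest and 3 with the highest slopes past the threshold, genes set beside a partner in the same complex, 3 nearest courses for the 3 lowest slopes, and JUN, IER2, GAPDH and ACTB. Other genes of the lists that are named were added after their values were seen, to account for small counts. Gene positions, transcripts and 3′ UTR sequences are from GENCODE version 44 (GRCh38), matched by symbol for 93.2% of tested genes. That build is not the one the processing notes name. One gene set down for the lists is not reported here. Alternatives were library totals, DESeq2 1.42.0 size factors and Wald test, scaling to GAPDH and ACTB, no count filter or one of 100, a replicate block, leaving out each replicate or single libraries, and fewer time points. Figures used Python 3.11.15 and matplotlib 3.10.9.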

Additional observations from a re-analysis of the deposited data

How the results depend on the processing

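The calls of CDK7, CCNT1, CCNT2, HEXIM1, BRD2 and AFF1 over time held in all 24 alternatives run, CDK9 in 23 and AFF4 in 20. Counts are of genes called. Shares of all tested genes called between time points or off a line are those given above. They cover the main fit and, with the replicate block, 1 h against 0 h and the departure from a line. For the other settings such shares were not counted, so those counts cannot be set against all genes. Under library totals, 2 of the 9 genes were lower at 1 h against 0 h, 8 at 4 h against 2 h, and 7 other elongation genes rose. Under GAPDH and ACTB these were 3, 9 and 0, and 34 other genes fell. Over all 12032 tested genes, 7729 then fell and 112 rose over time, against 4704 and 2242 under library totals. With no count filter 1 gene was lower at 1 h, and with DESeq2's Wald test 1. With the replicate block 4 were, and 4 departed from a line. That block also called CDK7 at 2 h against 1 h, and CDK9 and AFF4 at 4 h against 2 h, and it lost no call among the 9 genes. Leaving out a replicate gave 3 to 5 genes lower at 4 h against 2 h, 0 to 1 off a line, and a BRD2/HEXIM1 slope of -0.073 to -0.047.

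Some signs turned. Slopes under library totals were -0.026 for LARP7 and -0.026 for CCNH. Under GAPDH and ACTB they were -0.12 for LARP7, -0.13 for CCNH, -0.010 for ERCC2, -0.037 for GTF2H3, -0.062 for GTF2H5, -0.042 for NELFE, -0.045 for NELFCD, -0.047 for NELFB, -0.049 for SSRP1, -0.055 for TCEA1, -0.056 for WDR61 and -0.017 for ACTB. AFF4 at 2 h against 1 h became -0.051 (library totals), -0.12 (GAPDH and ACTB), -0.0069 (mean of at least 100 counts) and -0.012 to 0.024 (leaving out a replicate). LARP7 at 4 h against 0 h became -0.12, -0.53, -0.0032 and -0.0012 to 0.032 in the same order, and -0.017 at 2 h against 1 h under GAPDH and ACTB. Leaving out a replicate gave -0.047 to 0.016 for CDK9 and -0.12 to 0.021 for AFF4 at 1 h against 0 h, and -0.035 to 0.039 for LARP7 at 4 h against 2 h. Scaling causes follow from construction; for the rest the cause was not tested. With 3 libraries per time point, half-lives beyond 4 h are extrapolated.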
